A study of Mus musculus with 4 samples.

Results

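Collagens are the most abundant proteins of the extracellular matrix. Each chain carries Gly-X-Y repeats, by which 3 chains wind into a triple helix, and the helices are then built into fibrils, networks or filaments outside the cell. In skeletal muscle, fibrillar collagens I and III fill the connective tissue between fibers, collagen IV forms the network of the basement membrane that covers fibers and satellite cells, and collagen VI links the basement membrane to the surrounding fibrils. Chromatin accessibility at the collagen genes was examined here in myoblasts with and without Tet2, a dioxygenase that oxidizes methylated cytosine in DNA. The genes were taken as all protein-coding genes of the mm9 annotation (GENCODE release M1) whose symbol is Col, a number, the letter a and a number, which gave 43 of 22380 protein-coding genes. A peak was counted for a gene when it lay anywhere from 10000 bp upstream of its start to its end.

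The cells were primary myoblasts of C57BL/6 mice, either wild type (WT) or constitutive knockouts of Tet2 lacking exon 3 (Tet2 KO), with no further treatment of either group. By the methods, the mice were males aged 8 to 10 weeks. Satellite cells, the stem cells of muscle, were sorted from hindlimb muscle as negative for CD45, CD11b, CD31 and Sca1 and positive for CD34 and Integrin a7, and were grown on plates coated with type I collagen for at least 3 days, when they had become MyoD+ myoblasts. ATAC-seq, in which the transposase Tn5 tags accessible DNA, was carried out on 5000 cells per library, with 2 samples per genotype. The values analysed here are 1 peak list per genotype, each from 1 library, so no value has a replicate and no test between the genotypes was made. Shares are given with Wilson 95% intervals, which hold counting error alone. In all, 25775 peaks are listed for WT and 3836 for Tet2 KO. Peak numbers run along each chromosome and are in part missing from the lists (9707 in WT, 4403 in Tet2 KO), so a peak that was called may be unlisted. The most frequent background at the summits was 0.649 fragments for WT and 1.38 for Tet2 KO. Genotype and library cannot be told apart. Of 8 markers of satellite cells and myoblasts, Myod1 and Des had a promoter peak in both lists, Pax7, Cdh15, Itga7, Vcam1 and Met had WT peaks elsewhere, and Myf5 had no peak. Among 19 markers of other cell types, Pecam1 had a promoter peak, in WT only. WT peaks in the window were listed for 3 of 4 endothelial, 3 of 4 blood and 2 of 3 pericyte and smooth muscle genes. They were also listed for 1 of 5 fibro-adipogenic and 0 of 3 Schwann cell genes. A peak anywhere in a window thus did not separate the lists of markers. Of all protein-coding genes, 49.5% had a WT peak, 30.2% a WT promoter peak and 7.92% a Tet2 KO promoter peak. A WT promoter peak at 2 of 8 myoblast markers and 1 of 4 endothelial markers therefore does not show cell identity.

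The WT list held 76 peaks at collagen genes and the Tet2 KO list 7, a ratio of 10.9, beside 6.72 for the lists as a whole. This ratio rests on 7 Tet2 KO peaks. It also sets unlike peaks side by side, since 70 of the 76 were at no promoter, beside 18729 of all 25775 WT peaks. The WT peaks were spread over 29 of the 43 genes and lay almost entirely inside the genes, 64 of them in introns (84.2%, interval 74.4 to 90.7%), with 4 at a promoter of a collagen gene and 2 at that of another gene. The 7 Tet2 KO peaks were all intronic, were at 7 different genes (Col4a2, Col6a3, Col13a1, Col15a1, Col19a1, Col24a1 and Col27a1), and each overlapped a WT peak.

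The sequences of these 7 WT peaks are given first, since they are the only collagen regions listed as accessible in both genotypes. For each, up to 100 bases on either side of the WT summit within the peak are printed, on the plus strand of mm9. Capitals mark every match, on either strand, to CAGCTG (an E box of the kind MyoD binds), TGANTCA (AP-1), CATTCC (TEAD), CCAAT (NF-Y), GGGCGG (SP) or TGTGGT (RUNX). A match is a description of the letters and not a shown binding site.
Col4a2 chr8:11382507-11382707: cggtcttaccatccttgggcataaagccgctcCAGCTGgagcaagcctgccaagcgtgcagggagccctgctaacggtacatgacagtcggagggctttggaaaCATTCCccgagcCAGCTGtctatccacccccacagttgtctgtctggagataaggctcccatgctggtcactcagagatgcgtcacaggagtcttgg
Col6a3 chr1:92731472-92731672: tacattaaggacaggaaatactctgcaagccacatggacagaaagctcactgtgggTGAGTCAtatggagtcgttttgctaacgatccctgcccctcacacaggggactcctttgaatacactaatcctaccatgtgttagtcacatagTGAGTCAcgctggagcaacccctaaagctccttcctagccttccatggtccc
Col13a1 chr10:61428052-61428252: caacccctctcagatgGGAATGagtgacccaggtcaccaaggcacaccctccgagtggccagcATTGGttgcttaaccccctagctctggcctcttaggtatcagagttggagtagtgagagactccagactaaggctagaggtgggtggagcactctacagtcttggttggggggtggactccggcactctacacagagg
Col15a1 chr4:47306746-47306946: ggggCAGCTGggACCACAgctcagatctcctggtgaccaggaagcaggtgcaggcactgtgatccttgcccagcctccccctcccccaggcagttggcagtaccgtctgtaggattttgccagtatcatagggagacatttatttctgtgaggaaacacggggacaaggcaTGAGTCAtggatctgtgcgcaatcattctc
Col19a1 chr1:24560433-24560629: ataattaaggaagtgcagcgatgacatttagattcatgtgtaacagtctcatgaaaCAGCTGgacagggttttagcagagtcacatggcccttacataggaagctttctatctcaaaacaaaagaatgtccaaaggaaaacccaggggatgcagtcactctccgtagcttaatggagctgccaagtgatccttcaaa
Col24a1 chr3:145083542-145083742: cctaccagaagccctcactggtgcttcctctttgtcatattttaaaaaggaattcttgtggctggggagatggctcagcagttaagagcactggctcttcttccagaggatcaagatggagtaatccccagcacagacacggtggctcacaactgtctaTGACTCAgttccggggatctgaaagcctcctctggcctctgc
Col27a1 chr4:62977460-62977660: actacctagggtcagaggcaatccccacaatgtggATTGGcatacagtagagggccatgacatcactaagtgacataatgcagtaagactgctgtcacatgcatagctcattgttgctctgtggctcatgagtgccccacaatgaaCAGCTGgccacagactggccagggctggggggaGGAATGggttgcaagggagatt

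The next sequences are those of the 2 WT peaks at the start of a collagen gene, the only such peaks listed. Of the peak at the start of Col12a1, only the bases upstream of the start are printed.
Col12a1 upstream chr9:79566639-79566745: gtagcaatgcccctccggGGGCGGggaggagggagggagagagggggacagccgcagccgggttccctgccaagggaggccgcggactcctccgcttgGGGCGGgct
Col25a1 chr3:129883510-129883676: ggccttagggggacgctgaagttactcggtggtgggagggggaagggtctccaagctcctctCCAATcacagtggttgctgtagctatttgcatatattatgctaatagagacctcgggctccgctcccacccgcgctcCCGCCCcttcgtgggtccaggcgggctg

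The values of the peaks are those of the authors' peak caller. The fold enrichment is the number of fragments at the summit over that in the local background, with 1 added to each, and the -log10 q is the significance of that excess within the library. The number of fragments at each summit was recovered from these values and the -log10 p. Across the 76 WT collagen peaks the fold enrichment ran from 4.82 to 14.8 with a median of 7.81, beside a median of 7.89 for all WT peaks. The summits held 7 to 37 fragments, with a median of 15, so single values rest on few fragments. The median width was 214 bp, beside 212 bp for all WT peaks.

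**Figure D1:**
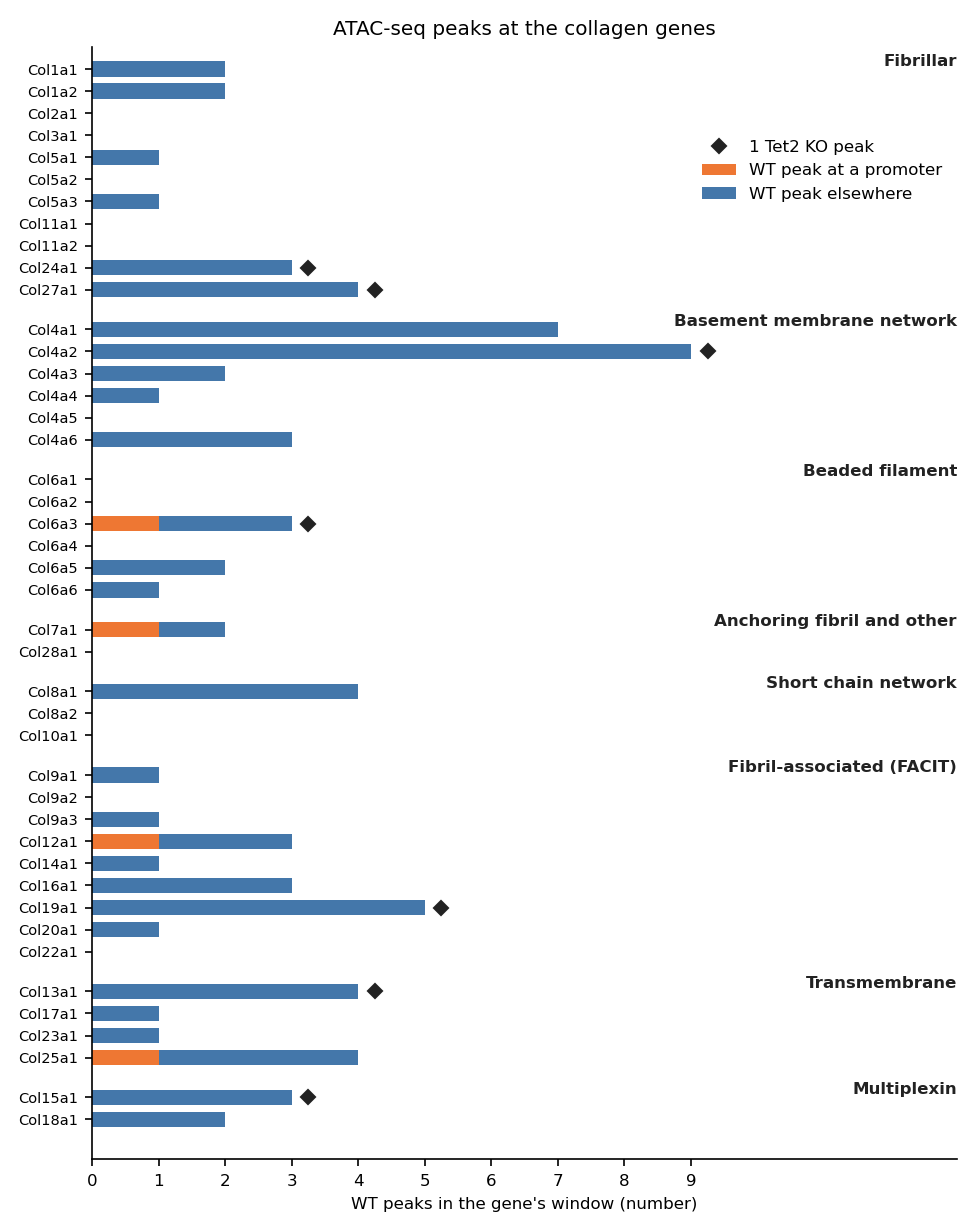
WT peaks in the window of each of the 43 collagen genes, grouped by class, with the number of peaks on the x axis. Orange is a peak at a promoter, blue any other peak, and a diamond marks a gene with 1 Tet2 KO peak; Col4a2 had the most WT peaks (9), and 14 genes had none.

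A WT peak was found at 29 of the 43 collagen genes (67.4%, interval 52.5 to 79.5%), beside 49.5% of all protein-coding genes. A Tet2 KO peak was found at 7 (16.3%, interval 8.12 to 30%), beside 13.5%. Collagen genes are long, with a median of 114 kb against 15.4 kb for all protein-coding genes, so shares were also set out by length. Of the 15 collagen genes under 50 kb, 46.7% had a WT peak (interval 24.8 to 69.9%), beside 43.7% of all genes of that length. Of the 17 of 50 to 150 kb, 88.2% had one (interval 65.7 to 96.7%), beside 69.0%. Of the 11 over 150 kb, 63.6% had one (interval 35.4 to 84.8%), beside 74.0%. In all 3 classes the interval included the share of all genes. For Tet2 KO peaks the share was 0% in the shortest class (interval 0 to 20.4%), beside 11.2% of all genes. It was 29.4% in the middle class (interval 13.3 to 53.1%), beside 20.3%, and 18.2% in the longest (interval 5.14 to 47.7%), beside 26.4%. These intervals also included the shares of all genes. Per 100 kb of window, the collagen genes had 1.38 WT and 0.125 Tet2 KO peaks, and all protein-coding genes 1.71 and 0.294. The WT value also varied with length. From the shortest to the longest class it was 1.75, 2.33 and 0.616 for collagen genes, beside 2.7, 1.65 and 0.913 for all genes. The collagen value was thus higher in the middle class and lower in the others.

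At promoters the collagen genes had few peaks. A peak counted as a promoter peak when its centre lay within 1000 bp before and 100 bp after any annotated transcript start. In WT, 4 of 43 collagen genes had a promoter peak (9.30%, interval 3.68 to 21.6%), beside 30.2% of all protein-coding genes. In Tet2 KO none of the 43 had one, beside 7.92% of all protein-coding genes. The Wilson interval of 0 to 8.2% included this share. By a limit of 3 counts for a count of 0, the upper end was 6.98%, which lay below it, so the 2 limits differ on this point. The WT share was 6.67% of the collagen genes under 50 kb, 11.8% of those of 50 to 150 kb and 9.09% of those over 150 kb, beside 28.5%, 38.8% and 30.4% of all genes of those lengths, and the interval lay below the share of all genes in the middle class. Of the WT collagen peaks, 5.26% were at a promoter of their gene (interval 2.07 to 12.8%), beside 37.3% of the WT peaks in all protein-coding windows. Gene length was not taken into account in this last comparison, and a longer gene has more room for peaks away from promoters.

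**Figure D2:**
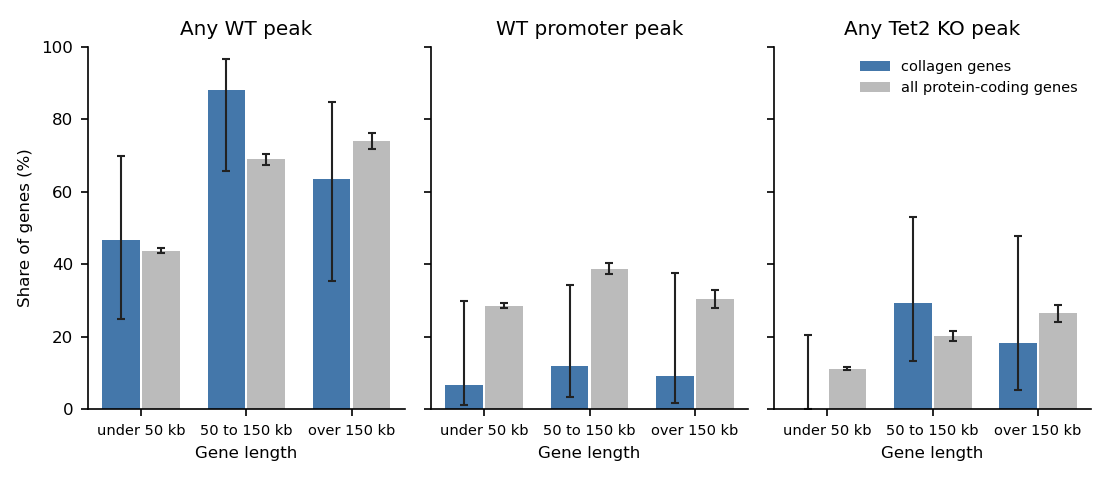
Share of genes (%) with any WT peak, with a WT promoter peak and with any Tet2 KO peak, in 3 classes of gene length, for collagen genes (blue) and all protein-coding genes (grey). Error bars are Wilson 95% intervals; the WT promoter share of collagen genes was 6.67 to 11.8% in the 3 classes, that of all genes 28.5 to 38.8%.

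Only Col12a1 and Col25a1 had a WT peak at the start of the gene itself. Col12a1 encodes a fibril-associated collagen of muscle and tendon connective tissue, and its peak (chr9:79566454-79566745) was centred 39 bp past the start, with a fold enrichment of 9.90, 18 fragments and a -log10 q of 14.5. Its other WT peaks, in introns 108334 and 109826 bp past the start, had fold enrichments of 10.2 and 6.80. This peak was rich in CpG, with 26 CpG in 292 bp. Col25a1 encodes a transmembrane collagen needed for motor innervation of muscle, and its peak (chr3:129883510-129883721) was centred 194 bp upstream of the start, with a fold enrichment of 6.11, 10 fragments and a -log10 q of 6.05. The other promoter peaks were at internal transcript starts. At Col6a3 the peak (chr1:92699850-92699976) was 40616 bp past the gene start, with a fold enrichment of 7.69, 12 fragments and a -log10 q of 8.98. At Col7a1, the collagen of the anchoring fibrils of skin, the peak (chr9:108884698-108884854) was 29145 bp past the start, near the end of the gene, with a fold enrichment of 7.42, 18 fragments and a -log10 q of 10.7. Its other WT peak, in a coding exon at 24553 bp, had a fold enrichment of 7.88, 18 fragments and a -log10 q of 11.4. None of the 4 promoter peaks overlapped a Tet2 KO peak.

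For the other 41 genes no WT peak touched the promoter of the gene start. At 15 of these, the WT peaks listed on either side had consecutive numbers, so no WT peak was called in between. This was the case for Col1a2, which encodes a chain of collagen I, and for the shared start of Col4a1 and Col4a2, which are transcribed away from each other with starts that overlap by 22 bp. The WT peak nearest to the start was 2672 bp away at Col1a2, 2526 bp at Col4a1, 2820 bp at Col5a1, 2076 bp at Col5a3 and 2777 bp at Col16a1. At the other 26 genes, Col1a1 and Col3a1 among them, at least 1 WT number was missing around the start, and whether a peak was called there is not known. The median distance from a collagen gene start to the nearest WT peak was 16957 bp.

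**Figure D3:**
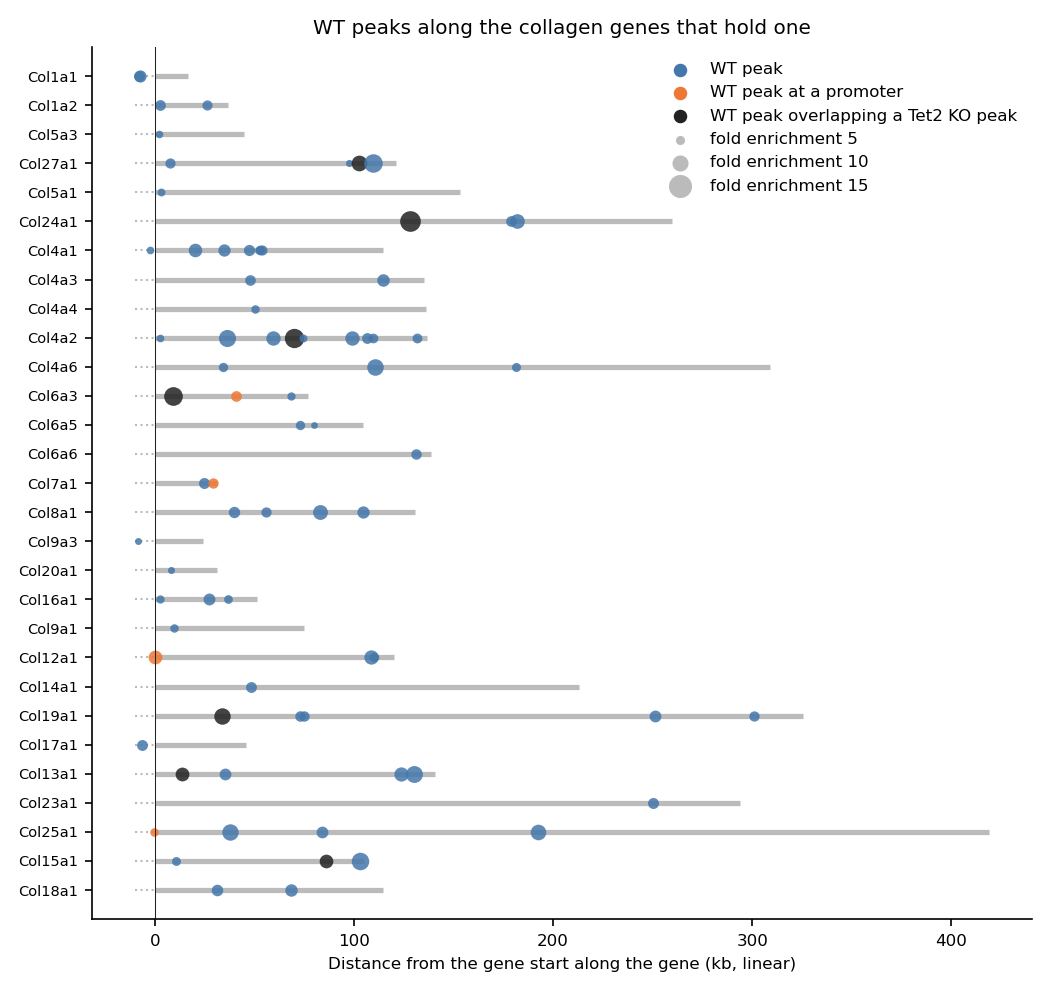
Position of each WT peak along the 29 collagen genes that hold one, in kb from the gene start (the grey bar is the gene, the dotted line the 10 kb upstream). The area of a point follows the fold enrichment, orange marks a promoter peak and black a peak that overlaps a Tet2 KO peak; only 4 points are orange and 7 black, and all black points lie in gene bodies.

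Within the gene bodies the WT peaks showed no crowding at the 5′ end. Of 71 peaks between the start and the end of a gene, 19 lay in the first 25% of its length, 17 between 25 and 50%, 13 between 50 and 75% and 22 in the last 25%. Besides the introns and promoters, 3 peaks were in coding exons (Col1a2, Col6a3 and Col7a1), 1 in a noncoding exon (Col13a1) and 4 upstream of a gene. The upstream peaks were 2 at Col1a1, 8060 and 7273 bp before the start, 1 at Col17a1 and 1 at Col9a3. The peak assigned to Col9a3 lay at the promoter of its neighbor Ogfr, and 1 of the peaks of Col4a3 lay at the promoter of a 5S rRNA gene copy, so 70 of the 76 peaks were at no promoter of any gene.

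The fibrillar collagens form the load-bearing fibrils. Of their 11 genes, 6 had a WT peak, with 13 peaks in all, and 2 had a Tet2 KO peak. Of all protein-coding genes, 49.5% had a WT peak and 13.5% a Tet2 KO peak. The median length of the 11 genes was 45.0 kb, and 43.7% of all genes under 50 kb had a WT peak. The genes of the collagen I chains had 2 WT peaks each. The peaks of Col1a1, both upstream, had fold enrichments of 7.87 and 8.72, and those of Col1a2 7.74 in an intron and 7.30 in a coding exon. Neither gene had a Tet2 KO peak, and at Col1a2 the Tet2 KO peaks listed on either side were consecutive. Col3a1, the partner of collagen I in muscle connective tissue, had no peak in either list, nor had Col2a1, Col11a1 and Col11a2, which are known from cartilage. Of the collagen V chains, which set the width of collagen I fibrils, Col5a1 and Col5a3 had 1 weak WT peak each (fold enrichment 5.67 and 5.42) and Col5a2 none.

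The most and the strongest fibrillar peaks were at Col24a1 and Col27a1, the genes of minor fibrillar collagens. Col24a1 had 3 WT peaks. The one shared with Tet2 KO (chr3:145083447-145083776, 330 bp, 128175 bp past the start) had a fold enrichment of 14.8 in WT, the highest of the 76, with 33 fragments and a -log10 q of 30.1, and 7.47 in Tet2 KO with 17 fragments and a -log10 q of 8.95. The others, at 178834 and 181852 bp, had WT fold enrichments of 7.73 and 10.5. Col27a1 had 4 WT peaks, 3 of them within 12 kb near the 3′ end. The shared one (chr4:62977123-62977707, 585 bp, 102377 bp past the start) had a fold enrichment of 11.3 in WT with 31 fragments and a -log10 q of 23.3, and 6.64 in Tet2 KO with 21 fragments and a -log10 q of 9.21. Its neighbor at 109569 bp was stronger in WT by fold enrichment (13.3, 23 fragments) and had no Tet2 KO peak, with 1 Tet2 KO number missing in the 86580 bp around it. Those at 7678 and 97709 bp had fold enrichments of 7.32 and 5.08.

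The collagen IV genes, which build the basement membrane network, had the most WT peaks. Of the 6 genes, whose median length was 136 kb, 5 had 1 or more, beside 69.0% of all genes of 50 to 150 kb. Of their 21 peaks, 15 were at the neighboring genes Col4a1 and Col4a2, whose chains assemble together in all basement membranes. Col4a2 had 9 and Col4a1 7 WT peaks, of which 1 was in both windows. As many peaks as at Col4a2 were found at 0.576% of all protein-coding genes and as many as at Col4a1 at 1.21%. These shares are over genes of any length. Both genes were picked for having the most WT peaks of the collagen genes, so the shares describe them and test nothing. Per 100 kb, Col4a2 and Col4a1 had 6.14 and 5.63 WT peaks, beside 1.65 for all protein-coding genes of 50 to 150 kb. Col1a1, a gene of 16.8 kb with 2 WT peaks, had 7.46. The 6 peaks inside Col4a1 had fold enrichments of 9.70 at 20032 bp past its start, 8.81 at 34524, 8.05 at 47177, 5.92 at 52410, 6.98 at 52801 and 7.24 at 54042 bp, with 13 to 21 fragments. The last 3 lay close together. The peak in both windows, 2605 bp past the start of Col4a2, had a fold enrichment of 5.50 and 10 fragments. The other 8 peaks of Col4a2 ran from 5.74 to 13.8, and the strongest peaks were on its side.

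A single Tet2 KO peak was listed for the pair, in an intron of Col4a2. Its WT peak (chr8:11382447-11382767, 321 bp, 69802 bp past the start) had the highest -log10 q of all collagen peaks (31.1), with a fold enrichment of 13.8 and 37 fragments. In Tet2 KO the fold enrichment was 5.37, with 15 fragments and a -log10 q of 5.27. The next strongest peaks of Col4a2, at 36037 bp with a fold enrichment of 12.3, at 99133 bp with 10.3 and at 59493 bp with 10.3, had no Tet2 KO peak. The weaker ones, at 74643, 106644, 109366 and 131568 bp, had fold enrichments of 5.74, 7.77, 6.94 and 7.04, also without a Tet2 KO peak. Toward and across Col4a1 no Tet2 KO peak was listed over 6703660 bp, in which 11 Tet2 KO numbers were missing. The other chains had fewer WT peaks, with 2 at Col4a3, 1 at Col4a4, 3 at Col4a6 and none at Col4a5. Col4a3, Col4a4 and Col4a5 form the network of the kidney glomerulus.

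Collagen VI, the beaded filament collagen whose defects cause muscular dystrophies, is built from the chains of Col6a1, Col6a2 and a further chain such as that of Col6a3. Col6a3 had 3 WT peaks, while Col6a1 and Col6a2, which lie near each other on chromosome 10, had none. At Col6a1 no WT number was missing over 166648 bp, so no WT peak was called there, and at Col6a2 1 was missing. The shared peak of Col6a3 (chr1:92731417-92731700, 284 bp) was in an intron 8971 bp past the start, with a fold enrichment of 13.4, 33 fragments and a -log10 q of 27.9 in WT. In Tet2 KO it had a fold enrichment of 8.11, 23 fragments and a -log10 q of 12.4, the highest Tet2 KO values of any collagen peak. Besides the promoter peak above, Col6a3 had a WT peak in a coding exon at 68293 bp, with a fold enrichment of 5.95. Of the alternatives to the Col6a3 chain, Col6a5 had 2 WT peaks, Col6a6 1 and Col6a4 none.

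The fibril-associated collagens coat the fibrils and link them to other matrix proteins. WT peaks were found at 7 of their 9 genes, 15 in all, with none at Col9a2 and at Col22a1, whose product marks the muscle-tendon junction. The median length of the 9 genes was 75.1 kb, and 69.0% of all genes of 50 to 150 kb had a WT peak. Col19a1, a collagen found early in muscle development, had 5 WT peaks over its 326 kb, a number reached by 2.99% of protein-coding genes of any length. This gene too was among those picked for the most WT peaks, so the share tests nothing. Per 100 kb Col19a1 had 1.49 WT peaks, beside 1.71 for all protein-coding genes and 0.913 for those over 150 kb. Its shared peak (chr1:24560345-24560629, 285 bp, 33824 bp past the start) had a fold enrichment of 11.8, 23 fragments and a -log10 q of 19.7 in WT and of 5.03, 11 fragments and 3.71 in Tet2 KO. Its other 4 peaks, at 72977, 74932, 251258 and 300905 bp, had fold enrichments of 7.54, 7.42, 8.49 and 7.39. Col12a1 and Col16a1 had 3 WT peaks each, and Col9a1, Col9a3, Col14a1 and Col20a1 1 each.

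The transmembrane collagens are held in the plasma membrane, and all 4 of their genes had a WT peak, 10 in all. These are long genes, with a median of 217 kb, and 74.0% of all genes over 150 kb had a WT peak. Col13a1, whose product sits at the neuromuscular junction, had 4. Its shared peak (chr10:61427976-61428524, 549 bp, 13606 bp past the start) had a fold enrichment of 9.88, 23 fragments and a -log10 q of 16.8 in WT. In Tet2 KO it had the lowest values of the 7, with a fold enrichment of 4.18, 10 fragments and a -log10 q of 2.37. The other 3 WT peaks of Col13a1, at 35453, 123680 and 130284 bp with fold enrichments of 8.45, 10.2 and 12.1, had no Tet2 KO peak. Col25a1 had 4 WT peaks, with fold enrichments of 11.7 at 37560 bp, 8.43 at 83991 bp and 11.2 at 192435 bp besides that at its start, and no Tet2 KO peak, with 6 Tet2 KO numbers missing around it. Col17a1 and Col23a1 had 1 WT peak each.

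The multiplexins Col15a1 and Col18a1 encode collagens of the basement membrane zone, and mice without collagen XV have a mild myopathy. Col15a1 had 3 WT peaks, 2 of them at the 3′ side of the gene. The shared one (chr4:47306660-47307095, 436 bp, 85844 bp past the start) had a fold enrichment of 9.80, 23 fragments and a -log10 q of 16.7 in WT and of 4.70, 14 fragments and 4.01 in Tet2 KO. The one at 102849 bp was stronger in WT, with a fold enrichment of 12.5, 33 fragments and a -log10 q of 26.6, and had no Tet2 KO peak. In the 309743 bp between the Tet2 KO peaks listed on its sides, 3 Tet2 KO numbers were missing. The peak at 10853 bp had a fold enrichment of 6.40. Col18a1 had 2 WT peaks, and the Tet2 KO peaks on either side of it were consecutive, so no Tet2 KO peak was called there.

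Of the short chain collagens, Col8a1, a collagen of vessel walls and the corneal membrane, had 4 WT peaks with fold enrichments of 7.34 to 10.6, while its partner Col8a2 and Col10a1, the marker of hypertrophic cartilage, had none. In the remaining group, Col7a1 had 2 WT peaks and Col28a1 none. The 14 collagen genes without a WT peak were thus Col2a1, Col3a1, Col4a5, Col5a2, Col6a1, Col6a2, Col6a4, Col8a2, Col9a2, Col10a1, Col11a1, Col11a2, Col22a1 and Col28a1. At 3 of them, Col6a1, Col11a1 and Col28a1, no WT number was missing across the window.

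**Figure D4:**
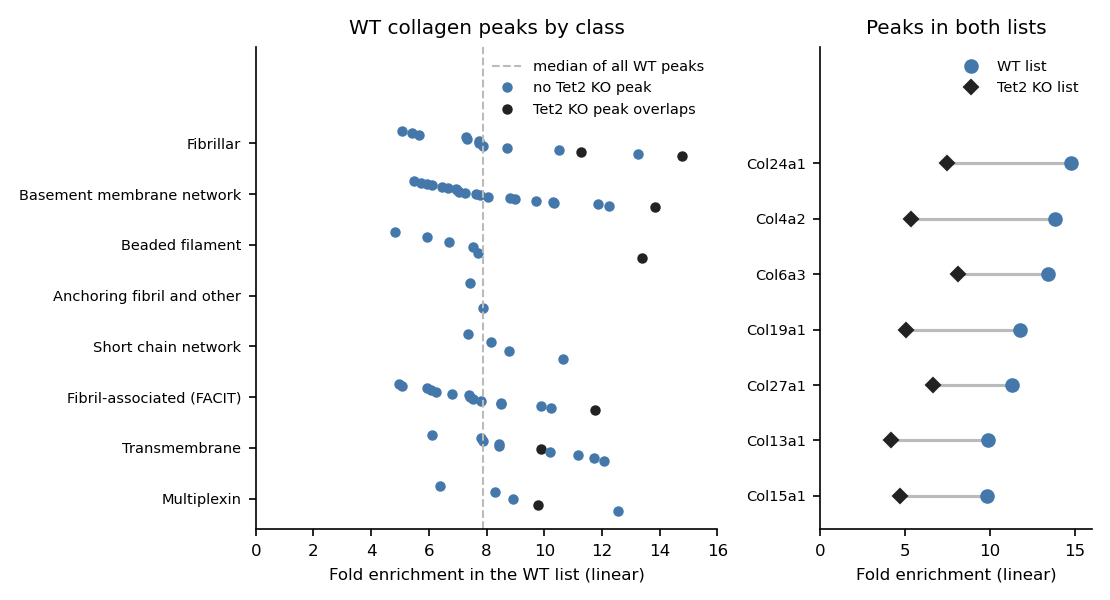
Left, fold enrichment (linear) of the 76 WT collagen peaks by class, with peaks overlapping a Tet2 KO peak in black and the median of all WT peaks (7.89) as a dashed line. Right, fold enrichment of the 7 peaks present in both lists, in WT (circles, 9.80 to 14.8) and Tet2 KO (diamonds, 4.18 to 8.11), each from 1 library.

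Of the 76 WT collagen peaks, 7 overlapped a Tet2 KO peak by at least 1 bp (9.21%, interval 4.53 to 17.8%), beside 14.1% of all WT peaks. Among the peaks at no promoter, the share was 10% (7 of 70, interval 4.93 to 19.2%), beside 10.9% of all such WT peaks. The shared peaks were among the stronger ones, with WT fold enrichments of 9.80 to 14.8 and a median of 11.8, while the 69 others ran from 4.82 to 13.3 with a median of 7.73. The ranges overlapped, since 14 of the 21 WT peaks with a fold enrichment of at least 9.80 had no Tet2 KO peak. When all WT peaks were ranked by fold enrichment and divided into 5 equal groups, none of the 49 collagen peaks in the lowest 3 groups had a Tet2 KO peak. Of all WT peaks in these 3 groups, 1.75%, 3.34% and 7.33% had one. These shares lay within the collagen intervals (up to 21.5%, 27.8% and 13.3%). In the fourth group 2 of 13 had one (15.4%, beside 16.1% of all WT peaks) and in the strongest 5 of 14 (35.7%, interval 16.3 to 61.2%, beside 41.9%).

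In each of the 7 shared peaks the fold enrichment was lower in Tet2 KO, at 0.388 to 0.606 of the WT value with a median of 0.479. This was so for 98.1% of all WT peaks that overlapped a Tet2 KO peak, with a median of 0.532. The fold enrichment depends on the background of each library, which was higher in Tet2 KO, and its part in this difference was not tested. For the 69 WT peaks without a Tet2 KO peak, the Tet2 KO peaks listed on either side were consecutive for 7 (10.1%, interval 5.0 to 19.5%), beside 16.3% of all such WT peaks. These 7 were at Col1a2, Col5a1, Col15a1, Col17a1 and Col18a1. At the other 62 an unlisted Tet2 KO peak is possible.

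**Figure D5:**
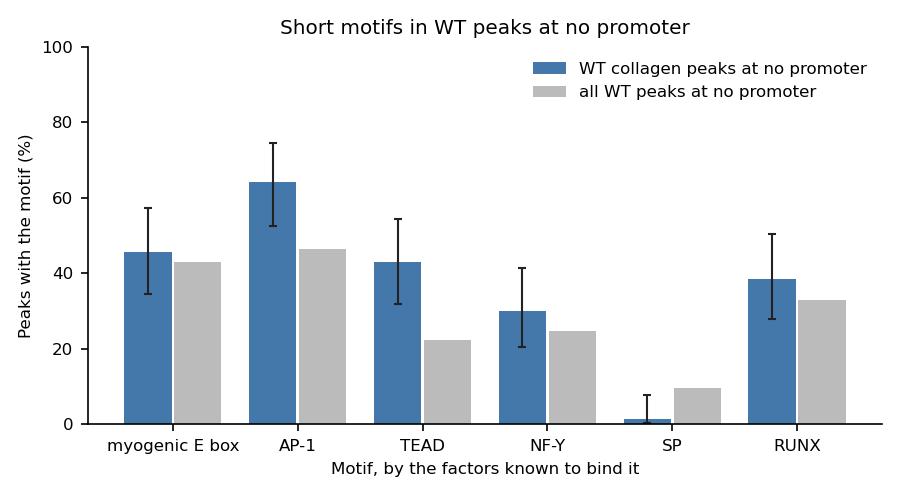
Share (%) of WT peaks at no promoter that hold each of 6 short motifs, for the 70 collagen peaks (blue, with Wilson 95% intervals) and all 18729 such WT peaks (grey). The AP-1 motif was in 64.3% and 46.3% and the TEAD motif in 42.9% and 22.2%.

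The motifs named above were searched over the whole length of the 70 WT collagen peaks at no promoter and of all 18729 WT peaks at no promoter. TGANTCA, the motif of AP-1, was in 45 collagen peaks (64.3%, interval 52.6 to 74.5%), beside 46.3% of all. CATTCC, the motif of TEAD factors, was in 30 (42.9%, interval 31.9 to 54.5%), beside 22.2%, and both together were in 24 (34.3%, interval 24.2 to 46.0%), beside 10.3%. CAGCTG was in 45.7% (interval 34.6 to 57.3%), beside 42.9%, CCAAT in 30% (interval 20.5 to 41.5%), beside 24.8%, and TGTGGT in 38.6% (interval 28.0 to 50.3%), beside 32.9%. GGGCGG was in 1.43% (interval 0.253 to 7.66%), beside 9.52%. Over the whole length, the interval lay above the share of all peaks for TGANTCA and CATTCC and below it for GGGCGG. Neighboring peaks of 1 gene are not independent, so these intervals are too narrow. The median GC content was 51.1% in the collagen peaks and 50.8% in all. Within 100 bp of the summit, CATTCC was in 31.4% of the collagen peaks (interval 21.8 to 43.0%) and in 20.3% of all, and TGANTCA in 55.7% (interval 44.1 to 66.8%) and 44.1%. Near the summit the interval thus lay above the share of all peaks for CATTCC, by little. For TGANTCA its lower end was at that share.

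Of the 7 peaks shared with Tet2 KO, TGANTCA was in 6, CATTCC in 5 and CAGCTG in 4 over their whole length, and none lacked all 3. The peak of Col6a3 held a pair of TGANTCA matches within 100 bp of its summit and none of the others. That of Col4a2 held a pair of CAGCTG and 1 CATTCC and was the only one without TGANTCA. Of all 2047 WT peaks at no promoter with a Tet2 KO peak, 55.9% held TGANTCA, 32.3% CATTCC and 55.3% CAGCTG.

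Genes whose products make, process or bind collagens were counted in the same way. Of 60 such genes, 43 (71.7%) had a WT peak, beside 49.5% of all protein-coding genes, and 15 (25%) a Tet2 KO peak, beside 13.5%. A WT promoter peak was found at 18 (30%), beside 30.2%, and a Tet2 KO promoter peak at 4 (6.67%), beside 7.92%, so the promoter shares were near those of all genes. Gene length was not taken into account in these shares. Of the 16 genes for chain synthesis, folding and secretion, 8 (50%) had a WT promoter peak, among them P4ha1, P4ha2 and P4hb, which encode subunits of prolyl 4-hydroxylase, and Serpinh1, the collagen chaperone Hsp47. P4ha3, a further subunit, had no peak in either list. In Tet2 KO, promoter peaks were listed at P4hb, at Ppib, a prolyl isomerase that assists folding, and at Sec23a, a coat protein of the vesicles that export procollagen. Of the 10 genes for processing and crosslinking, 9 (90%) had a WT peak and 3 (30%) a Tet2 KO peak, beside the 49.5% and 13.5% of all genes. The lysyl oxidase gene Loxl2 had 7 WT and 3 Tet2 KO peaks, and Lox, which had 4 WT peaks with 1 at its promoter, no Tet2 KO peak. All 8 receptor genes had a WT peak, beside 49.5% of all genes. Of all genes over 50 kb, 69.0 to 74.0% had one, but the lengths of the receptor genes were not compared. Itgb1, the shared chain of the collagen-binding integrins, was the only receptor gene with a promoter peak in both lists.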

How the data were processed

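ATAC-seq reads of 2 WT and 2 Tet2 KO samples were trimmed by the authors to 36 bp, aligned to mm9 with Bowtie2, filtered at a mapping quality of 30 and freed of duplicates with Picard, and peaks were called per sample with MACS2 (q of 0.01 in the methods). Tool versions are not given in the sources used here. Of the deposited files, 1 peak list per genotype was used, assigned by its name and peak total. The authors deposited for each peak a score, the fold enrichment (a ratio to the local background), the -log10 p, the -log10 q and the summit offset within the peak. Total reads are not known.

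Fragments at each summit were recovered by inverting the Poisson formula that MACS2 uses for the fold enrichment and p (pseudocount 1, tolerance 0.001 in -log10 p), and the steps were tested on simulated data. Genes and transcript starts were those of GENCODE M1, and sequences those of NCBIM37 (mm9). An overlap was 1 bp or more. Gene lists, classes and motifs, like the collagen genes themselves, were chosen with earlier results of these data known. The rule for named genes took those with a Tet2 KO peak or a WT promoter peak, the 5 WT peaks of highest -log10 q and the 3 genes with the most WT peaks. Position or distance, fold enrichment, fragments and -log10 q are given for their shared, promoter and 5 strongest peaks, and distance and fold enrichment for their other peaks. Other collagen genes are given by counts, and their single values, like the pathway genes named, were chosen after their values were seen. Alternatives were stricter limits, other windows, merged peaks and other overlap, promoter and motif rules. The software was pysam 0.24.0, matplotlib 3.10.9, scipy 1.17.1, pandas 2.3.3 and numpy 2.4.6 under Python 3.11.15.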

Additional observations from a re-analysis of the deposited data

How the results depend on the processing

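Of 49 values recomputed under alternatives, 39 stayed within 1.5 times the count or within the 95% interval of the share reported, and 10 did not. When both lists were limited to a -log10 q of 10 or more, 42 WT and 1 Tet2 KO peaks remained at collagen genes, 41.9% of the genes had a WT peak and 2.38% of the WT peaks overlapped a Tet2 KO peak. At a limit of 5, 4 Tet2 KO peaks remained. With a window of 50000 bp upstream to 10000 bp past the end there were 125 WT and 16 Tet2 KO peaks, at 83.7% of the genes in WT. With the promoter widened to 3000 bp on either side, its share of the WT collagen peaks was 19.7%. The share over all protein-coding windows was not recomputed with this promoter, so the 19.7% has no matching value beside it. With motifs searched within 100 bp of the summit, CATTCC was in 30.3% of the 76 WT peaks, beside 40.8% over their whole length. Leaving out Col4a1 and Col4a2, an alternative chosen after seeing the data, left 61 WT and 6 Tet2 KO peaks. TGANTCA was in 65.6% and CATTCC in 44.3% of these WT peaks, beside 61.8% and 40.8% of all 76. No paired analysis was possible because there was only 1 peak list, from 1 library, for each genotype. For the same reason no replicate could be left out. The lists also carry no replicate number. The summits hold few fragments and part of the peak numbers is missing from both lists, so a gene without a listed peak is not shown to be closed.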

Other observations

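Among the matrix partners of the collagens, 14 of 21 genes (66.7%) had a WT peak, 5 (23.8%) a WT promoter peak and 3 (14.3%) a Tet2 KO peak, beside 49.5%, 30.2% and 13.5% of all protein-coding genes. Gene length was not taken into account here either. The laminins, which form the other network of the basement membrane, had 6 WT peaks at Lama5, 4 at Lama2, the chain of muscle laminin, and none at Lama4. Tet2 KO peaks were listed at Lama5, Lamb3 and at Sparc, a collagen-binding glycoprotein, which also had 4 WT peaks. Perlecan (Hspg2) had 4 WT peaks and Fbn1, the main protein of microfibrils, 5. The small leucine-rich proteoglycans Bgn, Dcn, Lum and Fmod, which coat collagen fibrils, and Fn1 had no peak in either list. Of 5 collagenase and gelatinase genes, Mmp2 and Mmp9 had 1 WT peak each, none at a promoter, and Mmp8, Mmp13 and Mmp14 none. No Tet2 KO peak was listed at these 5 genes. These genes were named after their values were seen.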
